A study of Mus musculus with 6 samples.

Results

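The antiviral type I interferon response genes are 38 listed genes that cells switch on after type I interferon binds its receptor. The members were taken by symbol from a list, and 36 of the 38 were found under the same gene identifier in every file, out of 30406 gene identifiers that all files share. Mx1 and Mx2 are not analysed here. The UMIs of the 36 genes (unique molecular identifiers, which count single captured RNA molecules) were summed in marker-defined cell classes of 6 droplet single-cell libraries. Each library held live CD45+ cells sorted from mammary tumours grown from Py8119, a mouse breast cancer line, in female mice.

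The study asks what Mtdh, the gene for metadherin, does in the host rather than in the tumour. The intact KO library came from mice lacking Mtdh and the intact WT library from wild-type control mice. The other 4 libraries came from irradiated mice rebuilt with donor bone marrow: KO marrow in KO host, KO marrow in WT host, WT marrow in KO host and WT marrow in WT host. Tumour cells were injected 8 weeks after the marrow transfer, tumours were taken after 4 weeks of growth, and about 15000 sorted cells were loaded per library. The labels do not give the kind of Mtdh allele, the age of the mice or how many mice went into a library, and all 6 groups carried the same tumour line. The chimeras are written below as marrow over host: KO/KO, KO/WT, WT/KO and WT/WT. Intact KO and the KO/KO chimera are called the both-KO libraries below, because host and marrow both lack Mtdh in them. An irradiated host keeps some of its own long-lived immune cells, so marrow genotype in a chimera is the genotype of most, not all, of its CD45+ cells.

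Type I interferons bind a receptor made of Ifnar1 and Ifnar2, whose kinases activate Stat2 and other factors. Stat2 joins Irf9 and enters the nucleus, where the complex binds the interferon-stimulated response element of target promoters. The targets include proteins that sense foreign nucleic acid, block translation of viral RNA, cut RNA, trap virus at the membrane, and feed back on the pathway itself. In tumours the same genes are read as a trace of interferon made by myeloid and other cells, and interferon gamma from T and NK cells induces part of the list, in part through Irf1.

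The libraries held between 85616443 and 142779550 UMIs in all, 37992 of 41267 barcodes were kept, and any 2 libraries shared 8 to 25 barcodes (0.133% to 0.348% of the smaller library). Every group is 1 library, so a test across the 6 libraries measures their spread around a model and not a spread between animals of a group. The intact libraries were also counted with another version of the counting software than the chimeras, so transplantation and software cannot be told apart and every fit carries a term for them. Mtdh followed the marrow label: in CD8 T cells it stood at 12.6 to 18.8 CPM (a gene's UMIs scaled to a common total for the class) in the 3 libraries with KO marrow or KO germline and at 73.0 to 84.5 CPM in the other 3. CD8 T cells were few in some libraries, with 284 (intact KO), 72 (intact WT), 1180 (KO/KO), 229 (KO/WT), 82 (WT/KO) and 132 (WT/WT), against 3685 to 5372 macrophages per library. The gate for CD8 T cells asked for UMIs of T cell receptor complex and Cd8 genes and none of Cd4, and Nkg7, Prf1, Pdcd1 and Cst7, which it did not use, were among their leading genes. The macrophage gate used markers that include C1q genes, Csf1r and Adgre1, and Apoe, Pf4 and Ms4a7 were among the leading genes it did not use.

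In CD8 T cells the antiviral genes were lower in the both-KO libraries, and in macrophages of the same tumours they were higher. Of the 31 genes with enough UMIs to be tested in CD8 T cells, 10 fell and none rose (edgeR, adjusted p under 0.05), 22 had an unadjusted p under 0.05, and the median log2 change was -0.73 against 0.00 over all genes tested. Among all genes 3.04% fell and 1.77% rose in that comparison. In macrophages all 36 genes could be tested, 30 rose and none fell, 34 had an unadjusted p under 0.05, and the median log2 change was 1.09 against -0.01 over all genes, of which 9.24% rose and 7.92% fell. DESeq2 called 0 of the antiviral genes in the opposite direction in either class. The test of the difference between the classes, with each library as a block, called 27 of 31 genes lower in CD8 T cells relative to macrophages, against 5.7% of all genes lower and 1.74% higher, and the estimate was negative for all 31. The 4 that missed were Isg20, Stat2, Irf9 and Eif2ak2. Slfn5, Usp18, Rtp4, Irf7, Oas3, Ifi203 and Sp100 passed in both classes on opposite sides. The both-KO contrast and this pair of classes were chosen with earlier results of these data known. The p-values therefore describe a pattern already seen and do not test it afresh.

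**Figure D1:**
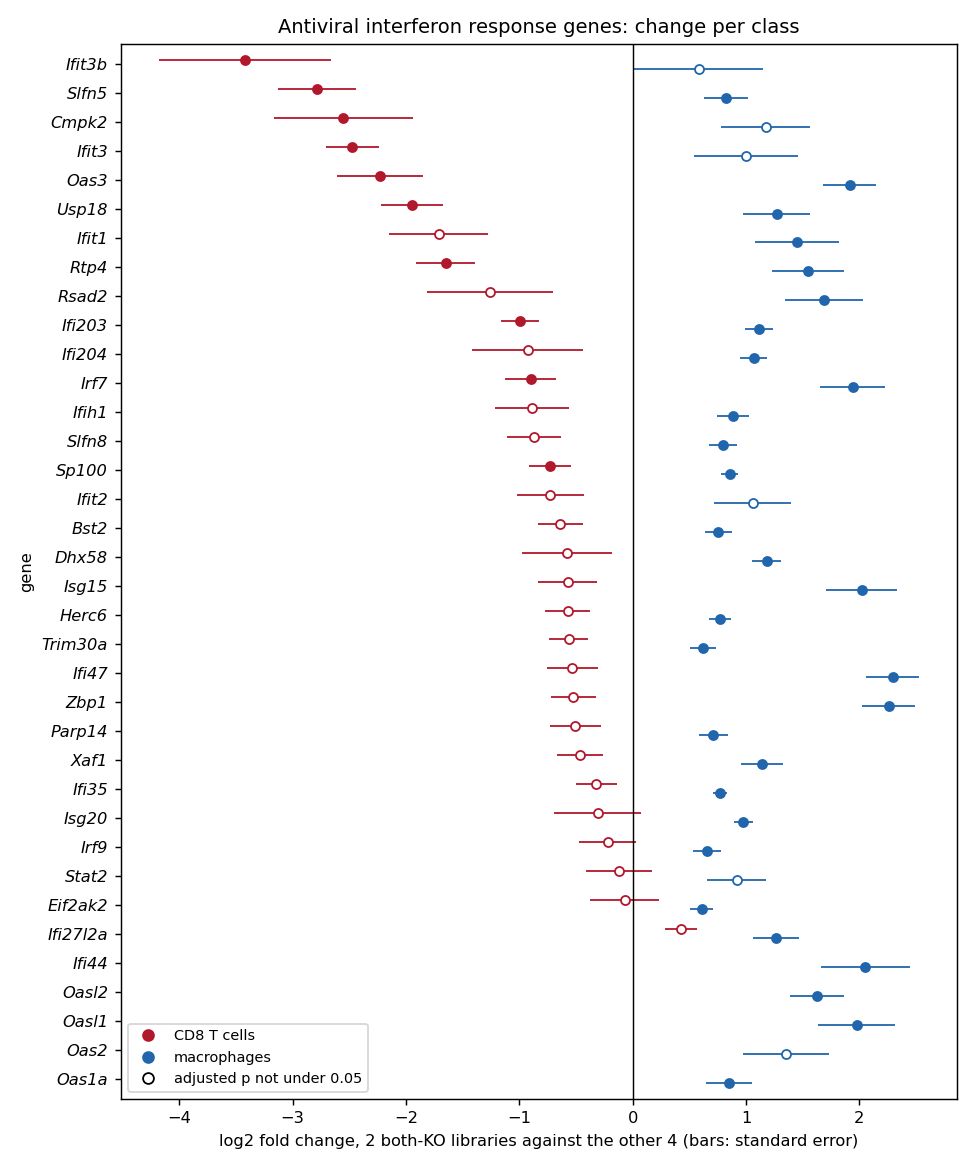
Log2 fold change of each antiviral gene in the 2 both-KO libraries against the other 4, in CD8 T cells (red) and macrophages (blue), with the standard error as a bar. Filled points have an adjusted p under 0.05; the red points lie left of 0 except Ifi27l2a at 0.43, the blue points all lie right of 0, and 5 genes at the bottom had too few UMIs in CD8 T cells for a test.

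Leaving out 1 library changed how many genes passed. Without either intact library the transplant term takes up the remaining intact one, so both fits compare KO/KO with the other chimeras. Without KO/KO the estimate compares intact KO with intact WT, 1 library with 1. The fits are therefore not separate checks of one another. Without intact KO, intact WT or KO/KO, fewer antiviral genes passed in CD8 T cells, in macrophages and for the difference. Fewer of all genes were then called lower in CD8 T cells too. In macrophages without KO/KO about as many of all genes rose as in the full fit. The median log2 change of the antiviral genes in those fits, in that order, was -0.67, -0.69 and -0.78 in CD8 T cells. In macrophages it was 0.97, 0.96 and 1.19, and for the difference without KO/KO it was -1.92. Without KO/WT, 6 of 30 tested antiviral genes fell in CD8 T cells, against 106 of all 7875 genes. Ifit3 and Slfn5 stayed past the threshold in CD8 T cells whichever library was left out, as did Dhx58, Herc6, Ifi203, Ifi204, Ifi35, Isg20, Oas3 and Sp100 in macrophages. The difference held in the same way for Ifi203, Ifit1, Ifit3, Irf7, Isg15, Rtp4, Slfn5, Sp100 and Usp18. Signs were steadier than calls: in the fits without 1 library between 27 and 31 genes had a negative estimate in CD8 T cells and all 36 a positive one in macrophages.

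Many promoters of the antiviral genes carry the letters that the complex with Stat2 and Irf9 is known to bind. The list was drawn up of genes that interferon induces, so a high share of matches describes the list and not these libraries. The core searched for was GAAA, NN for any 2 bases, and GAAA again, on both strands of 300 bases per promoter, from 250 before to 50 after the RefSeq start (GRCm38.p6); overlapping matches were kept. It was found in 15 of the 28 antiviral genes with a promoter entry (53.6%), against 3.99% of all 27025 genes with an entry and 3.44% of all 32851 promoters. Below are 60 bases around the matches of 8 genes that passed the difference test, 5′ to 3′ on the strand of the gene, with the core in capitals. On the other strand the core reads as a pair of TTTC.
Ifit1 (chr19:34640769-34640828, plus strand): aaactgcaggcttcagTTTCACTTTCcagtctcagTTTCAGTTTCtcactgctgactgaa
Ifit3 (chr19:34583365-34583424, plus strand): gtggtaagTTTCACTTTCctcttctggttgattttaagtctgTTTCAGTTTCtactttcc
Ifit3b (chr19:34607761-34607820, plus strand): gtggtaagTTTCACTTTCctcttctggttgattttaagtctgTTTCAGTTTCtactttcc
Isg15 (chr4:156200856-156200915, minus strand): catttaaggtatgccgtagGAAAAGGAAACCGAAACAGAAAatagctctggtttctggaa
Oas3 (chr5:120777700-120777759, minus strand): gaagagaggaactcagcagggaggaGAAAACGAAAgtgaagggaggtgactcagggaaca
Ifi203 (chr1:173942493-173942552, minus strand): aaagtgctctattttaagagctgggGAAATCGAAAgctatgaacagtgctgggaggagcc
Rsad2 (chr12:26456538-26456597, minus strand): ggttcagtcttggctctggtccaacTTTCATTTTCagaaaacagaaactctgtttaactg
Slfn5 (chr11:82951922-82951981, plus strand): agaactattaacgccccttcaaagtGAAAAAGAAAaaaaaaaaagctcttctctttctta

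Isg15 had 3 overlapping matches, Ifit1, Ifit3 and Ifit3b had 2 each, and the 60 bases of Ifit3 and Ifit3b were the same. Of the 15 genes with a match, 14 could be tested in CD8 T cells, 5 fell, and their median log2 change was -0.94; of the 10 tested genes with an entry and no match, 3 fell, with a median of -0.55. In macrophages 12 of 15 genes with a match rose (median 0.88), and 11 of 13 without (median 1.14). A match is a run of letters and no measurement of binding.

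The Ifit genes lie together on chromosome 19 (GRCm38, GENCODE M21) from 34550694, the start of Ifit2, to 34650009, the end of Ifit1, and encode proteins that hold viral RNA away from the ribosome. Ifit3 had the smallest p of the list in CD8 T cells. It stood at 15.3 CPM (intact KO) and 77.1 (intact WT), and in the chimeras at 10.2 (KO/KO), 57.1 (KO/WT), 66.9 (WT/KO) and 45.9 (WT/WT). Both both-KO libraries lay below the other 4 with a wide gap, and Ifit3 fell by 2.47 ± 0.23 (log2 fold change ± SE; edgeR adjusted p = 0.000289). In macrophages Ifit3 stood at 30.1 (intact KO) and 11.8 CPM (intact WT) and at 30.6, 11.4, 33.8 and 16.5 CPM in the chimeras, in the same order. There the 3 libraries with a KO host were alike and the WT hosts lower, and the log2 change of 0.9996 ± 0.46 between both-KO libraries and the rest missed the threshold (edgeR adjusted p = 0.185), while the difference between the classes passed (-3.49 ± 0.37, adjusted p = 0.000697).

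Ifit1 in CD8 T cells was at 16.1 CPM (intact KO), 46.3 (intact WT), 15.3 (KO/KO), 35.2 (KO/WT), 89.2 (WT/KO) and 31.3 (WT/WT). The both-KO libraries were the lowest and WT/KO the highest, but the log2 change of -1.71 ± 0.44 missed the threshold (edgeR adjusted p = 0.0790). In macrophages the same libraries held 30.4, 8.56, 31.9, 9.35, 22.6 and 16.0 CPM, a rise of 1.45 ± 0.37 that passed only just (edgeR adjusted p = 0.0498). The difference for Ifit1 was -3.05 ± 0.31 (adjusted p = 0.000202). Ifit3b, next to Ifit3, fell by 3.42 ± 0.76 in CD8 T cells from a low level of 2.09 to 19.96 CPM in the other libraries to 0.767 and 1.03 CPM in the both-KO libraries, on 2 to 17 UMIs per library (edgeR adjusted p = 0.0222). Its longest transcript matches that of Ifit3 at 98.0% of 1697 aligned bases, so UMIs of the pair may be split between them. Ifit2 passed in neither class (-0.73 and 1.06).

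Isg15, a ubiquitin-like protein that is coupled to other proteins in infected cells, had the highest level of its group in both classes. CD8 T cells held Isg15 at 108 CPM (intact KO), 174 (intact WT), 106 (KO/KO), 90.3 (KO/WT), 194 (WT/KO) and 148 (WT/WT). Here the 3 KO-marrow or KO-germline libraries were lower than the 3 with WT marrow, and the both-KO log2 change was -0.57 ± 0.26 (edgeR adjusted p = 0.302). In macrophages Isg15 stood at 163, 34.7, 198, 41.2, 88.6 and 54.5 CPM in the same order, with the both-KO libraries highest and WT/KO next. The rise was 2.02 ± 0.31 (edgeR adjusted p = 0.0137) and the difference -2.55 ± 0.21 (adjusted p = 5.02e-05).

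Usp18 removes Isg15 from its targets and damps signalling at the interferon receptor. It fell in CD8 T cells by 1.95 ± 0.27 (edgeR adjusted p = 0.00193), with 11.9 CPM (intact KO) and 42.4 (intact WT), and 7.14, 21.9, 30.5 and 30.2 CPM in KO/KO, KO/WT, WT/KO and WT/WT. The both-KO libraries did not overlap the others. In macrophages the 6 values were 14.3, 4.89, 15.8, 6.39, 11.9 and 7.19 CPM and Usp18 rose by 1.27 ± 0.30 (edgeR adjusted p = 0.0391). The difference was -3.18 ± 0.30 (adjusted p = 0.000134). Herc6, the mouse ligase for Isg15, rose in macrophages by 0.77 ± 0.10 (edgeR adjusted p = 0.00708) and had a log2 change of -0.57 in CD8 T cells that missed the threshold.

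Oas proteins make a small oligoadenylate that activates RNase L, which cuts RNA in the cell. Oas3 was the one member of the family with enough UMIs for a test in CD8 T cells and it had the widest difference of the list. It stood at 6.91 CPM (intact KO) against 34.7 (intact WT), and at 4.65 (KO/KO) against 17.3 (KO/WT), 11.7 (WT/KO) and 31.3 (WT/WT). Oas3 fell by 2.23 ± 0.38 in CD8 T cells (edgeR adjusted p = 0.00574). In macrophages it rose by 1.91 ± 0.24 (edgeR adjusted p = 0.00764), from 2.85 to 6.92 CPM in the other libraries to 11.7 and 16.3 in the both-KO libraries, and the difference was -4.13 ± 0.51 (adjusted p = 0.00117), past the threshold in all fits without 1 library but the one without KO/KO. In macrophages 4 of 5 Oas genes rose, led in level by Oasl2 with 43.4 CPM (intact KO), 13.3 (intact WT) and 52.7, 16.1, 27.6 and 16.5 CPM in the chimeras (log2 change 1.63 ± 0.24, edgeR adjusted p = 0.0123). Oas2 missed the threshold (1.35, edgeR adjusted p = 0.0606).

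Irf7 is the factor that cells need to widen a type I interferon response after its start. CD8 T cells held it at 29.2 CPM (intact KO) and 44.3 (intact WT), and at 24.4, 43.8, 42.3 and 55.3 CPM in KO/KO, KO/WT, WT/KO and WT/WT. The both-KO libraries were the lowest, and Irf7 fell by 0.90 ± 0.22 (edgeR adjusted p = 0.0342), a call lost with DESeq2 and in 5 of the 6 fits without 1 library, all but the one without WT/KO. In macrophages it stood at 81.8 and 15.8 CPM in the intact pair and 108, 31.3, 51.9 and 34.5 CPM in the chimeras, a rise of 1.94 ± 0.29 (edgeR adjusted p = 0.0122), and the difference was -2.74 ± 0.28 (adjusted p = 0.000217). Irf9 and Stat2, which carry the signal from the receptor to DNA, moved little in CD8 T cells (-0.22 and -0.12, neither past the threshold); in macrophages Irf9 rose by 0.65 ± 0.12 (edgeR adjusted p = 0.0207) and Stat2 had 0.92 ± 0.26 (adjusted p = 0.0627).

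All 6 sensors of nucleic acid rose in macrophages and 1 of 6 fell in CD8 T cells. Zbp1, which binds Z-form nucleic acid and can start necroptosis, rose most, by 2.26 ± 0.23 (edgeR adjusted p = 0.00532), from 16.9 to 30.1 CPM in the other libraries to 71.6 and 105 CPM in the both-KO libraries. Ifi203, of the family of DNA-binding proteins that also holds Ifi204, was the most abundant sensor in CD8 T cells, with 109 CPM (intact KO), 249 (intact WT), and 114, 179.8, 196 and 218 CPM in KO/KO, KO/WT, WT/KO and WT/WT. It fell by 0.995 ± 0.17 (edgeR adjusted p = 0.00549). In macrophages the 6 values of Ifi203 were 92.7, 52.4, 121, 48.3, 64.8 and 52.7 CPM, a rise of 1.12 ± 0.13 (edgeR adjusted p = 0.00554), and the difference was -2.10 ± 0.18 (adjusted p = 5.44e-05).

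Ifi204 was the most abundant sensor in macrophages, at 102 CPM (intact KO), 58.0 (intact WT), 149 (KO/KO), 62.9 (KO/WT), 83.6 (WT/KO) and 67.9 (WT/WT) (log2 change 1.07 ± 0.12, edgeR adjusted p = 0.00536). In CD8 T cells it was at 3.86 to 21.1 CPM, its estimate of -0.93 missed the threshold, and without KO/KO the estimate was 0.08. Dhx58, Ifih1 and Eif2ak2, which recognise or answer to viral RNA, rose in macrophages by 1.18, 0.88 and 0.61, each with an edgeR adjusted p of 0.0156 or less.

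Rsad2 makes a chain-ending nucleotide that stops viral polymerases, and Cmpk2, beside it on chromosome 12, is a nucleotide kinase. Rsad2 in CD8 T cells was at 16.1 CPM (intact KO), 9.64 (intact WT), 7.55 (KO/KO), 16.6 (KO/WT), 39.9 (WT/KO) and 28.1 (WT/WT). The intact pair and the chimeras went opposite ways, and the estimate of -1.26 ± 0.56 did not pass (edgeR adjusted p = 0.2997); it was 0.69 without KO/KO. In macrophages Rsad2 was at 74.6, 15.9, 80.2, 24.2, 43.5 and 42.6 CPM in the same order and rose by 1.69 ± 0.34 (edgeR adjusted p = 0.0273); the difference was -2.81 ± 0.31 (adjusted p = 0.000310, a call lost without KO/KO). Cmpk2 fell in CD8 T cells by 2.55 ± 0.61 (edgeR adjusted p = 0.0300), from 4.70 to 11.6 CPM to 1.53 and 1.34 CPM. These levels are low. The call was lost without intact KO, intact WT, KO/KO or KO/WT, and without the cell with most antiviral UMIs in each library.

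Isg20, an exonuclease for RNA, was the enzyme with the highest level in CD8 T cells, at 96.3 CPM (intact KO), 104 (intact WT), 148 (KO/KO), 147 (KO/WT), 119.7 (WT/KO) and 287 (WT/WT). Its libraries overlapped and the estimate was -0.31 ± 0.38 (edgeR adjusted p = 0.779). In macrophages Isg20 was far lower, at 14.9, 8.15, 23.0, 11.6, 13.2 and 13.0 CPM, and rose by 0.98 ± 0.08 (edgeR adjusted p = 0.00280).

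Rtp4, a chaperone of membrane receptors that also damps interferon signalling, fell in CD8 T cells by 1.65 ± 0.26 (edgeR adjusted p = 0.00328), with 14.2 (intact KO) and 38.6 CPM (intact WT) and 9.31, 24.6, 35.2 and 30.2 CPM in KO/KO, KO/WT, WT/KO and WT/WT. In macrophages the values were 21.9, 6.58, 28.5, 7.81, 17.5 and 11.0 CPM and Rtp4 rose by 1.55 ± 0.32 (edgeR adjusted p = 0.0283). The difference was -3.18 ± 0.27 (adjusted p = 6.61e-05).

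Bst2, which tethers budding virus to the cell surface, was the most abundant member in macrophages, at 467 CPM (intact KO), 311 (intact WT), 652 (KO/KO), 379.8 (KO/WT), 474 (WT/KO) and 359 (WT/WT). It rose by 0.76 ± 0.12 (edgeR adjusted p = 0.0125), with WT/KO level with intact KO. Bst2 in CD8 T cells had -0.64 ± 0.20 (edgeR adjusted p = 0.0907). Ifi27l2a, a small membrane protein, had the one positive estimate of the list in CD8 T cells, and it stood higher in the both-KO libraries than in the other libraries of the same transplant status: 363 CPM (intact KO) against 293 (intact WT), and 712 (KO/KO) against 437, 539 and 442 CPM in KO/WT, WT/KO and WT/WT. That estimate of 0.43 ± 0.14 did not pass (edgeR adjusted p = 0.118). In macrophages the 6 values were 409, 172, 648, 222, 377 and 311 CPM and the rise was larger, 1.26 ± 0.20 (edgeR adjusted p = 0.0146; difference -0.82 ± 0.18, adjusted p = 0.0180).

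Slfn5, a Schlafen protein that type I interferon induces, had with Isg15 the smallest p of the difference test. CD8 T cells held it at 4.22 CPM (intact KO) and 48.2 (intact WT), and at 5.27, 21.9, 38.7 and 27.1 CPM in KO/KO, KO/WT, WT/KO and WT/WT. The both-KO libraries lay far below the rest, and Slfn5 fell by 2.78 ± 0.34 (edgeR adjusted p = 0.000876). In macrophages the values were 39.4, 24.6, 62.0, 29.6, 48.7 and 33.4 CPM, a small rise of 0.82 ± 0.20 (edgeR adjusted p = 0.0409), and the difference was -3.60 ± 0.27 (adjusted p = 5.02e-05).

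Sp100, a protein of nuclear bodies, fell in CD8 T cells by 0.73 ± 0.18 (edgeR adjusted p = 0.0393), with 205 (intact KO) and 384 CPM (intact WT) and 158, 234, 181 and 267 CPM in the chimeras, in the same order as before. The ranges of the both-KO libraries and the rest overlapped across transplant status, and the call was lost in 5 of the 6 fits without 1 library, all but the one without WT/KO. In macrophages Sp100 stood at 77.2, 50.2, 80.4, 43.2, 47.8 and 44.4 CPM and rose by 0.86 ± 0.07 (edgeR adjusted p = 0.00281; difference -1.56 ± 0.20, adjusted p = 0.000715). Trim30a, of a family of ubiquitin ligases, had 72.5, 118, 56.0, 67.03, 82.2 and 74.0 CPM in CD8 T cells (-0.57 ± 0.17, edgeR adjusted p = 0.0823). In macrophages it had 75.0, 55.5, 77.6, 46.8, 61.1 and 48.9 CPM and rose by 0.62 ± 0.11 (edgeR adjusted p = 0.0192; difference -1.18 ± 0.17, adjusted p = 0.00148).

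The other 6 genes, Xaf1, Ifi44, Ifi35, Ifi47, Parp14 and Slfn8, rose in macrophages, by 0.71 to 2.29, and none passed in CD8 T cells. Ifi47, a GTPase that interferon gamma induces strongly, had the largest rise of the list in macrophages, 2.29 ± 0.24 (edgeR adjusted p = 0.00527), from 16.0 to 28.5 CPM in the other libraries to 53.9 and 118 CPM in the both-KO libraries. Ifi44 had no UMI in CD8 T cells of either intact library and 0.827 to 8.22 CPM in the chimeras.

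**Figure D2:**
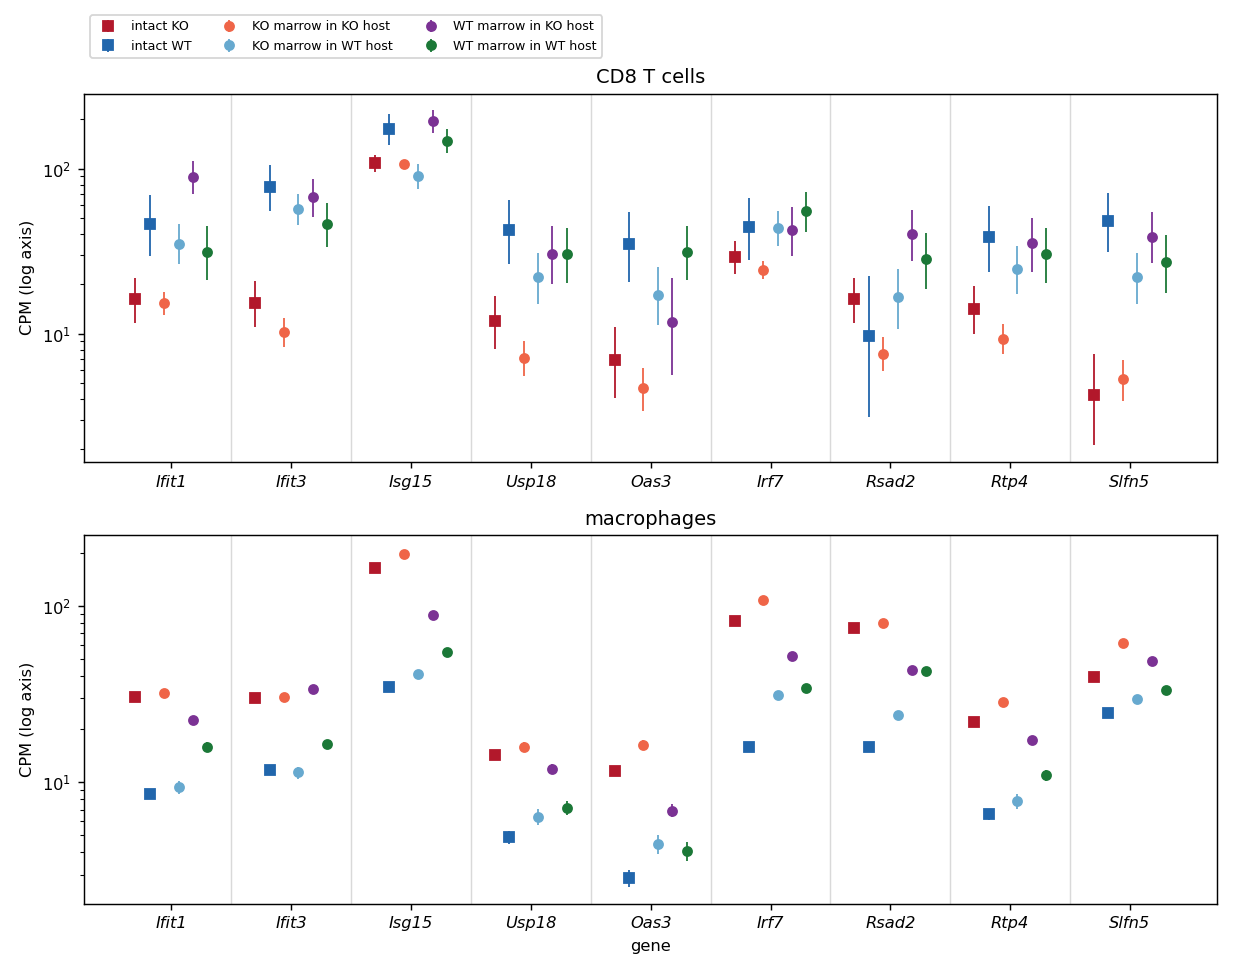
CPM of 9 antiviral genes in each of the 6 libraries (log axis; squares intact mice, circles chimeras, bars exact Poisson 95% intervals, which cover counting error only), in CD8 T cells above and macrophages below. The red and orange both-KO libraries are lowest for Ifit3, Usp18 and Slfn5 in CD8 T cells and highest for Isg15, Irf7 and Oas3 in macrophages.

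Among the 4 chimeras host and marrow genotype vary apart, and the order of the libraries can be read against each in either class. The counts that follow also include the intact pair, where host and marrow genotype coincide. They use CPM with no term for transplant. In macrophages all 3 libraries with a KO host lay above all 3 with a WT host for 32 of 36 genes, against 3.34% of all genes with at least 10 UMIs; the exceptions were Herc6, Stat2, Eif2ak2 and Sp100. For none of the 36 did the 3 libraries with KO marrow or KO germline lie all above or all below the 3 with WT marrow. For CD8 T cells 9 genes were lower in all 3 KO-host libraries than in all 3 WT-host libraries (4.05% of all genes were) and 10 were lower in all 3 KO-marrow or KO-germline libraries (2.32% of all genes). The 10 included Isg15, Usp18, Slfn5, Rtp4 and Ifi203 and the 9 included Oas3, Irf7 and Sp100. Set against the other 4 libraries, the both-KO libraries were both higher for 32 of 36 genes in macrophages, as many as for the host. In CD8 T cells both were lower for 18 of 36, more than for host or marrow. The share of all genes for that split is not given here.

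A fit with separate terms for host and marrow made few calls. The host term called 1 of 31 antiviral genes lower in CD8 T cells, Oas3 (-1.67 ± 0.35, edgeR adjusted p = 0.0172), against 0.617% of all genes lower and 1.47% higher. In macrophages it called 0 of 36 with edgeR, where 30 had an unadjusted p under 0.05, their median log2 host change was 0.96, and the percentage of all genes called was 0.0; DESeq2 called 22 higher, where it called 121 higher and 14 lower of all 14962 genes. The marrow term called 0 in either class (0.0233% of all genes were lower and 0.0698% higher in CD8 T cells, and 0.0 in macrophages), with 7 and 3 genes at an unadjusted p under 0.05; DESeq2 also called 0 for the marrow term in both classes.

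The summed level of the 36 genes was, in CD8 T cells, 1658 CPM (intact KO) and 2557 (intact WT), and 1983, 2171, 2411 and 2690 CPM in KO/KO, KO/WT, WT/KO and WT/WT, so that the both-KO libraries were the lowest. In macrophages it was 2325, 1147, 3073, 1278, 1864 and 1419 CPM, with the 3 KO hosts highest. At an equal depth of 1000 UMIs per cell, 29.7% of macrophages had 3 or more antiviral UMIs in intact KO (exact binomial 95% interval 28.3 to 31.1) and 10.7% in intact WT (9.83 to 11.5), and 43.1% in KO/KO against 13.0% to 20.7% in the other chimeras; 22 to 193 shallower macrophages per library were left out, and without thinning the shares were 93.0% to 98.8%. The CD8 T cell shares at equal depth were 21.8% (17.2 to 27.1) and 30.6% (20.2 to 42.5) in the intact pair and 27.4% against 25.6% to 37.1% in the chimeras, intervals that overlap, with unthinned shares of 91.7% to 98.8%. These shares were not set against those of a class known to lack the genes.

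**Figure D3:**
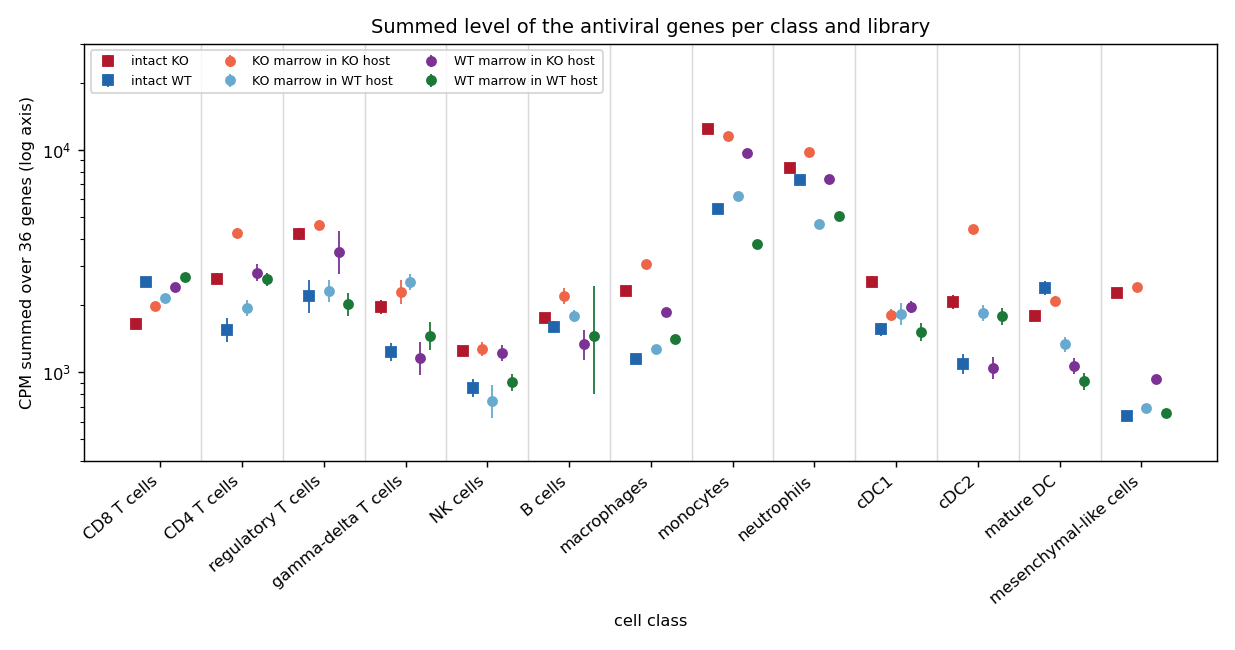
Summed level of the 36 antiviral genes (CPM, log axis) in 13 cell classes of each library, with exact Poisson 95% intervals that cover counting error only; squares are intact mice and circles chimeras. CD8 T cells have the both-KO libraries lowest, at 1658 and 1983 CPM, while macrophages, monocytes and mesenchymal-like cells have them highest.

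The make-up of the CD8 T cells differed between libraries beside these levels. Non-cycling cells with a UMI of a list of naive and memory cell genes that includes Ccr7, Lef1 and Tcf7 were 40.5% of CD8 T cells in intact KO, 70.8% in intact WT, 12.5% in KO/KO and 30.5% to 55.0% in the other chimeras, and the summed CPM of the exhaustion genes Havcr2, Pdcd1, Lag3 and Tox was 999.97 and 761 in the both-KO libraries against 316 to 668 in the rest. Their part in the result was not tested. Among non-cycling cells without naive or memory UMIs, the summed antiviral level was 1852 CPM (intact KO) against 4262 (intact WT). In the chimeras it was 2128 (KO/KO) against 2300, 3160 and 2953 CPM. These cells numbered 16 in intact WT and 40 in WT/KO. With doubled marker minimums WT/KO was at 2563 CPM and KO/KO at 2133. In this subset 24 of the 35 antiviral genes with at least 10 UMIs were lower in each both-KO library than in all others of its transplant status. Of the 35 genes 0 were higher, where 9.97% of all genes were lower and 13.1% higher. Among cells with such UMIs it was 1400 against 2191 CPM in the intact pair and 2059 against 2033, 1400 and 2898 CPM in the chimeras, 9 of 34 genes were lower in that sense and 1 was higher, and the chimera order of the sum was not that of the whole class. In cycling cells, 5 to 239 per library, it was 1647 against 2175 CPM in the intact pair and 1703 (KO/KO) against 2346, 2341 and 1701 CPM in KO/WT, WT/KO and WT/WT. Cells with a UMI of Havcr2, Pdcd1, Lag3 or Tox summed to 1664 against 2784 CPM in the intact pair and 2124 (KO/KO) against 2198, 1741 and 2594 CPM. In neither of these was KO/KO the lowest chimera, though in cycling cells its counting interval overlapped that of WT/WT. With edgeR, 3 of 24 tested antiviral genes fell in the cells with naive or memory UMIs (Ifit3, Ifit1 and Rtp4), against 30 of all 6609 genes. In those without such UMIs 3 of 26 fell (Ifit3, Oas3 and Slfn5), against 50 of all 5476 genes.

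**Figure D4:**
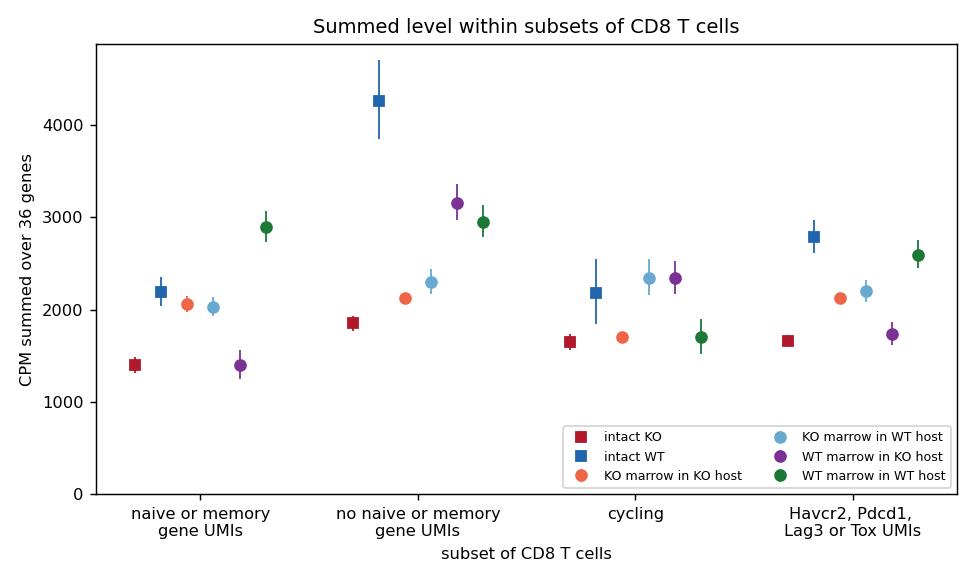
Summed level of the 36 antiviral genes (CPM) within subsets of CD8 T cells in each library, with exact Poisson 95% intervals that cover counting error only; squares are intact mice and circles chimeras. In non-cycling cells with no naive or memory gene UMIs the both-KO libraries, at 1852 and 2128 CPM, are lowest, which does not hold among the chimeras for the other 3 subsets.

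Other RNA in the CD8 T cell sums was also measured. C1q RNA, which T cells do not make, was present in CD8 T cells at 2.81% to 4.00% of its macrophage level, lowest in the both-KO libraries, and after subtraction of macrophage RNA in that proportion the same 10 antiviral genes fell and the same 27 differences were called. The summed CPM of 6 macrophage markers in CD8 T cells was 396 and 458 in the both-KO libraries and 534 to 704 in the others, with none of the 6 at 0. In WT/KO, 1 cell of 82 held 15.6% of the antiviral UMIs of its CD8 T cells and 3 cells held 33.9%. Without the top cell of every library the summed level was 1612 CPM (intact KO) against 2405 (intact WT). In the chimeras it was then 1963 (KO/KO) against 2075 (KO/WT), 2065 (WT/KO) and 2552 CPM (WT/WT), a narrower gap. Without those cells 7 of the 10 genes still fell, and the differences lost were Cmpk2, Ifi204 and Parp14.

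The other genes of the interferon pathway, 43 listed ligands, receptors, kinases, factors, sensors and inhibitors were found in all files for 41. In macrophages 14 of 29 tested rose and 1 fell, where 9.24% of all genes rose and 7.92% fell. Samhd1, which breaks down nucleotides, rose by 1.60 ± 0.07 (edgeR adjusted p = 0.000760), at 305 and 367 CPM in the both-KO libraries against 111 to 132 in the others, which did not overlap. Irf1, the factor behind many interferon gamma targets, rose by 2.59 ± 0.12 (edgeR adjusted p = 0.000805), and Socs1, an inhibitor of the receptor kinases, by 3.19 ± 0.29 (edgeR adjusted p = 0.00422). Ifng, the gamma interferon gene of T and NK cells, rose by 3.77 ± 0.33 in the macrophage sums (edgeR adjusted p = 0.00307), but at 0.0181 to 0.986 CPM, and the summed level of 6 T cell genes in the same sums was 11.2 and 30.7 CPM in the both-KO libraries and 3.53 to 8.92 in the rest, with none of the 6 at 0; the part of T cell RNA in it was not tested. Tlr7, a receptor for RNA in endosomes, fell by 0.96 ± 0.11 (edgeR adjusted p = 0.00571).

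In CD8 T cells 1 of 22 tested pathway genes rose and 2 fell, where 1.77% of all genes rose and 3.04% fell. Irf8 rose by 2.81 ± 0.25 (edgeR adjusted p = 0.000876), with 325 CPM (intact KO) against 27.0 (intact WT) and 681 (KO/KO) against 79.0 to 139 in the other chimeras. Of the 4 receptor genes tested 2 fell: Ifnar2, the chain that binds type I interferon most tightly, fell by 0.68 ± 0.17 (edgeR adjusted p = 0.0406), with 83.3 against 118 CPM in the intact pair and 43.4 against 62.2 to 73.7 in the chimeras, and Ifngr2, a chain of the gamma interferon receptor, fell by 2.11 ± 0.43 (edgeR adjusted p = 0.0336), with 34.2 against 92.6 and 3.93 against 11.5 to 35.8 CPM. The partner chains Ifnar1 (log2 change 0.29, edgeR adjusted p = 0.620) and Ifngr1 (0.03, edgeR adjusted p = 0.970) did not pass. Without intact KO, without intact WT or without KO/KO, 0 pathway genes were called lower.

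Outside these classes antiviral genes rose in mesenchymal-like cells, monocytes and neutrophils where host and marrow both lacked Mtdh. In the main fits none passed in CD4 T cells or mature dendritic cells. Mesenchymal-like cells, which passed the CD45 sort but carry Sparc, Krt8 and Mgp, had 23 of 33 tested genes higher and none lower (edgeR; 2.33% of all genes were higher and 1.86% lower), and Mtdh did not pass in them (log2 change 0.12, edgeR adjusted p = 0.641). Bst2 was at 771 and 786 CPM in their both-KO libraries against 176 to 271 in the rest (1.99 ± 0.18, edgeR adjusted p = 0.000645), and Irf7 at 57.5 and 42.4 CPM against 6.81 to 11.5 (2.25 ± 0.21, edgeR adjusted p = 0.000362). With doubled marker minimums 5 of their genes were called. Their class summed to 2264 and 2420 CPM in the both-KO libraries and 635 to 933 CPM in the other 4.

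Monocytes had the highest summed level of the classes in both both-KO libraries, at 12422 and 11532 CPM, against 3773 to 9706 CPM in the rest, and 11 of 36 genes rose (edgeR; 3.95% of all genes were higher and 2.08% lower), among them Zbp1, Oas3, Herc6 and Bst2. Without KO/KO 2 of the 11 passed, and Herc6 alone passed in every fit that left out 1 library. Their gate uses Ly6c2, which interferon can induce, their leading genes include Cxcl10, Ifi204 and Rsad2, and with doubled marker minimums 0 of 35 genes were called with edgeR, where 6 had an unadjusted p under 0.05. Under those minimums WT/KO, with 25 cells, had the highest sum, at 18019 CPM, against 14441 and 12300 CPM in the both-KO libraries and 5705 to 11410 CPM in the rest. In neutrophils 2 of 33 genes rose, Ifi47 by 2.95 ± 0.42 and Zbp1 by 2.06 ± 0.31 (edgeR adjusted p = 0.0121 and 0.0149), against 0.57% of all genes higher and 0.0407% lower. Neither passed without KO/KO, without KO/WT or without WT/KO. None of 17 genes passed in the main edgeR fit or with DESeq2 in CD4 T cells, where 2 had an unadjusted edgeR p under 0.05. Of all genes 0.229% were higher and 0.0832% lower. With no scaling 2 of 17 rose there, against 18 of all 4807 genes. With no low-count filter 2 of 36 rose (31 of 13705), and without WT/KO 2 of 16 (16 of 4989). In mature dendritic cells none of 25 passed in those 2 fits, and 6 had an unadjusted edgeR p under 0.05. Of all genes 0.0852% were higher and 0.0511% lower. With no low-count filter 2 of 35 rose there and 1 fell, against 94 and 49 of 13933.

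Directions can be read in every class without a test, by asking whether the both-KO library is above or below all others of its transplant status. CD8 T cells had 21 of 36 genes lower and 1 higher (12.1% and 20.4% of all genes), while macrophages had 34 of 36 higher and none lower (17.2% and 33.9% of all genes). Mesenchymal-like cells had 32 of 36 higher, monocytes 28 of 36, conventional type 2 dendritic cells (cDC2) 26 of 35 and neutrophils 13 of 35, each with none lower, against 17.1%, 14.9%, 15.6% and 11.0% of all genes. Among other lymphocytes genes were more often higher than lower: regulatory T cells had 13 of 24 higher and 2 lower (14.7% and 6.77% of all genes), CD4 T cells 8 of 31 and 2 lower (13.5% and 8.96%), NK cells 10 of 33 and none lower (13.1% and 10.9%), B cells 10 of 31 and none lower (12.4% and 4.28%), and gamma-delta T cells 7 of 29 and 1 lower (12.6% and 11.8%). Cross-presenting dendritic cells (cDC1) had 5 of 33 higher and mature dendritic cells 7 of 34, both with none lower, where 16.3% and 19.9% of all genes were higher and 9.84% and 10.2% lower. Regulatory T cells, gamma-delta T cells, NK cells, B cells and the cDC classes had fewer than 20 cells in at least 1 library, and plasmacytoid dendritic cells, with 16 cells in all, are not described. The difference between CD8 T cells and classes other than macrophages was not tested.

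**Figure D5:**
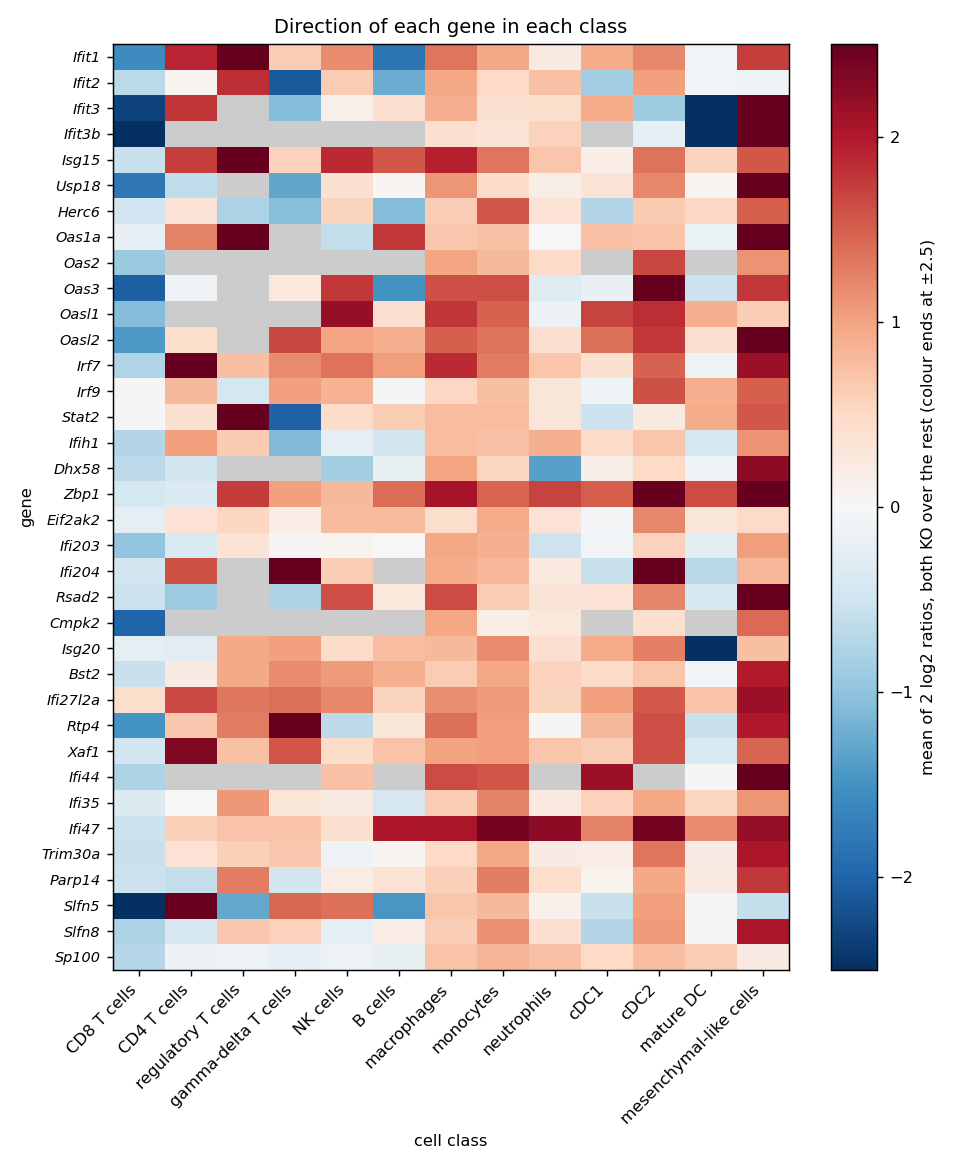
Mean of the 2 log2 ratios of CPM plus 1 (intact KO over intact WT, and KO/KO over the mean of the other 3 chimeras) for the 36 antiviral genes in 13 cell classes; grey marks genes with under 10 UMIs in a class, and colour ends at 2.5 in either direction. The column of CD8 T cells is blue for most genes and those of macrophages, monocytes, cDC2 and mesenchymal-like cells are red for most.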

How the data were processed

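Droplet 3' single-cell RNA counts were analysed for 6 libraries, 1 per group. Per the file headers, the deposited UMI counts per gene and barcode came from Cell Ranger 7.0.1 (intact libraries) and 6.1.1 (chimeras). The submitters' processing notes name mm10 and Seurat; the sources used here do not say if introns entered the counts. Barcodes with at least 500 UMIs, 200 genes and at most 15% mitochondrial UMIs were kept, and the 6% with the highest Scrublet scores in each library were removed. Cells were put into classes by marker UMIs, with minimums set after marker UMIs had been viewed; 4548 cells met no gate and 180 met more than 1. UMIs were summed per class and library and tested with edgeR 4.0.16 (robust quasi-likelihood test, TMM scaling, filterByExpr), with terms for transplant and both-KO, or for transplant, host and marrow, and Benjamini-Hochberg adjustment over all genes of a class at 0.05. The difference between classes was tested over 12 sums with the library as a block. Classes with under 20 cells in a library were not tested. Alternatives were DESeq2 1.42.0, other scalings, filters and gates, and leaving out each library. The alternatives chosen after seeing the data were: free macrophage RNA subtracted, naive and other CD8 T cells apart, cycling cells left out, and the cell with most antiviral UMIs left out. The fits were tested on simulated counts with known changes, where the share of false calls was above the nominal level. It was 9.26% to 13.9% of calls in the CD8 T cell and macrophage fits. In the test of the difference it was 20.45% for 2-fold changes, and 17.95% of those changes were recovered. For 4-fold changes it was 7.73%, and 93.7% were recovered. Poisson and binomial intervals are exact and cover counting error only. The members, the lists, the both-KO contrast, the pair of CD8 T cells and macrophages, and the genes described were chosen with earlier results of these data known. Values in every library are given for up to 12 members with the smallest p in the test of the difference. They are also given for the member of each role with the highest mean CPM in CD8 T cells and in macrophages. Pathway genes past the threshold are named, up to 4 per direction and class. Promoter sequences are from RefSeq. Some genes of the marker and pathway lists are not reported here by name.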

Additional observations from a re-analysis of the deposited data

Results flagged for a closer look

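The change where host and marrow both lacked Mtdh differed between CD8 T cells and macrophages, by a test of the difference itself (edgeR, adjusted p under 0.05), for 27 antiviral genes. The values are the log2 change in CD8 T cells minus that in macrophages. Among the Ifit genes the difference was -3.05 for Ifit1, -1.72 for Ifit2, -3.49 for Ifit3 and -3.99 for Ifit3b. In the Isg15 system it was -2.55 for Isg15, -3.18 for Usp18 and -1.32 for Herc6. Oas3 had -4.13 and Irf7 had -2.74. Among the sensors it was -1.71 for Ifih1, -1.77 for Dhx58, -2.81 for Zbp1, -2.10 for Ifi203 and -2.04 for Ifi204. The enzymes Rsad2 and Cmpk2 had -2.81 and -3.70. At membranes it was -1.36 for Bst2, -0.82 for Ifi27l2a and -3.18 for Rtp4. Of the others, Xaf1 had -1.60, Ifi35 -1.07, Ifi47 -2.87, Parp14 -1.20, Slfn8 -1.69, Trim30a -1.18, Slfn5 -3.60 and Sp100 -1.56. No group holds more than 1 library, so no library could be set against others of its group.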

How the results depend on the processing

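Libraries could not be paired between groups, because each group is 1 library and the labels carry no replicate numbers that groups share. The test of the difference did pair CD8 T cells and macrophages of the same library. Counts of antiviral genes moved when 1 library was left out: from 10 to between 2 and 14 lower in CD8 T cells, from 30 to between 11 and 32 higher in macrophages, from 27 to between 9 and 29 for the difference, from 36 to between 17 and 52 over the other classes, from 1 to between 0 and 5 for the host term in CD8 T cells, and from 0 to between 0 and 6 for the marrow term there. Pathway genes went from 2 to between 0 and 5 lower and from 1 to between 1 and 2 higher in CD8 T cells, and from 14 to between 6 and 10 higher in macrophages. Among CD8 T cells with naive or memory UMIs 3 antiviral genes fell, and 3 among those without; with no low-count filter 1 rose. The host term in CD8 T cells called 2 genes with RLE size factors, 0 with DESeq2, 5 with no low-count filter and 2 with the stricter gate; the marrow term called 3 with no low-count filter. DESeq2 called 22 for the host term in macrophages, and the stricter gate left 7 calls over the other classes. Pathway genes lower in CD8 T cells numbered 1 with no scaling, DESeq2, doublets kept, free macrophage RNA subtracted or the top cell left out, and 0 in either naive subset or without cycling cells; in macrophages 2 were lower with no scaling. The log2 ratio of the summed macrophage level went from 1.02 to 1.05 in the intact pair with the stricter gate, and from 1.02 to 1.04 with doublets kept and 0.9956 with the stricter gate in the chimeras. In CD8 T cells with naive or memory UMIs the chimera ratio turned from -0.04 to 0.12 with doublets kept; the cause was not tested. The log2 ratio of the share of cells at equal depth went from -0.49 to -1.39 in CD8 T cells of the intact pair with at least 5 UMIs asked for, from 1.48 to 0.90 (2000 UMIs) and 2.03 (at least 5) in intact macrophages, and from 1.41 to 1.01 and 1.75 in chimera macrophages. Of values for single genes, 235 in CD8 T cells, 205 in macrophages and 238 of the difference kept direction and side of the threshold. Over the same values 97 lost the threshold and 16 gained it. The other 2 changed sign without KO/KO, passing in neither fit: in CD8 T cells Rsad2 (-1.26) lay between -1.89 and 0.69 with 1 library left out and Ifi204 (-0.93) between -1.22 and 0.081, positive only without KO/KO; the cause was not tested. The difference was negative for every tested antiviral gene in every alternative. CD8 T cell sums rest on as few as 72 cells, which limits genes with few UMIs. Over all genes, leaving out 1 library moved the calls lower in CD8 T cells from 261 to between 8 and 370 and those higher from 152 to between 16 and 339, in macrophages from 1185 to between 437 and 1202 and from 1382 to between 677 and 1427, and for the difference from 485 to between 113 and 545 and from 148 to between 33 and 259. With no low-count filter they were 403 lower and 460 higher in CD8 T cells and 281 higher for the difference; with no scaling, which moved the median of all genes by -0.12 in macrophages and 0.12 in the difference, 1958 were lower in macrophages and 250 higher for the difference. DESeq2 called 2116 higher in macrophages. In CD8 T cells 30 were lower and 85 higher among those with naive or memory UMIs, 50 and 30 among those without, and 142 lower without cycling cells.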

Other observations

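Cxcl9, a chemokine gene that interferon gamma induces, split the macrophages further. Cells with a Cxcl9 UMI numbered 3040 of 4052 in intact KO and 3347 of 4299 in KO marrow in KO host, and 113 to 894 in the other libraries. Among them the summed antiviral level was 2538 CPM (intact KO) and 1510 CPM (intact WT), and 3110 in KO marrow in KO host against 2033, 2554 and 2195 CPM in KO marrow in WT host, WT marrow in KO host and WT marrow in WT host. Among macrophages without a Cxcl9 UMI it was 1634 and 1087 CPM in the intact pair, and 2877 against 1165, 1648 and 1391 CPM in the chimeras. The both-KO library was the highest of its transplant status in both sets of cells. The split uses an interferon-induced gene of the same cells and is given as values, with no test.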
